A study of Drosophila melanogaster with 54 samples.

Results

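The chemoreceptor genes of Drosophila melanogaster are described here in RNA from fly heads. Members were taken from the count table by gene symbol: every olfactory receptor (Or followed by a number and a letter), gustatory receptor (Gr) and ionotropic receptor (Ir), with Orco, Snmp1 and Snmp2 added by name. This gave 180 of 16719 genes, made up of 60 Or genes with Orco, 58 Gr genes, 60 Ir genes and 2 Snmp genes. The experiment used here sequenced the 3' ends of RNA in 12 libraries, 3 in each of 4 groups, to ask what the insulator protein BEAF-32 contributes to the response of the fly head to warm temperature; the other 42 of the study's 54 samples are not used here. Knockdown flies carried the actin5C-gal4 driver, which is active in most cells of the body, and a UAS-RNAi transgene against BEAF-32. Control flies carried the actin5C-gal4 driver without it, and their genotype is labelled wild type; the strain of both is labelled YW. Both genotypes were reared at 25 °C and then spent 3 days as newborn flies at 29 °C or at 18 °C under 12 h of light and 12 h of dark. The groups are thus knockdown at 29 °C, knockdown at 18 °C, control at 29 °C and control at 18 °C. The labels give no sex. They do not say whether replicate libraries stem from separate cultures, so each p-value rests on a spread between libraries that may be technical.

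Insects detect odours and tastes with receptor proteins in the cilia of sensory neurons that sit in hair-like sensilla. Or proteins work as odour-gated ion channels together with the shared co-receptor Orco, mostly in the antenna and the maxillary palp. Gr proteins detect sugars, bitter compounds, carbon dioxide and warmth, and most of their neurons lie in the mouthparts, legs and wings. Ir proteins are related to ionotropic glutamate receptors and pair a tuning subunit with a co-receptor such as Ir25a, Ir76b or Ir8a to detect acids, amines, humidity, temperature and tastants. Snmp1 and Snmp2 are membrane proteins of the CD36 family; Snmp1 acts in pheromone-sensing neurons and Snmp2 is found in the support cells of the sensilla. Such neurons are few among the cells of a head, which the eyes and the brain dominate.

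The receptor reads were few. The 12 libraries held between 2905211 and 7146191 counts, and the 180 genes took between 139 and 363 of them, with 40 to 65 genes seen per library. Over all 12 libraries together the members had 2972 reads, of which the Ir family took 963, the 2 Snmp genes 758, the Or family 679 and the Gr family 572. No read at all was counted for 47 members, 17 of them Or, 9 Gr and 21 Ir genes; these include Or22a, Or47b and Or82a of the antenna. A count of 0 among the 58592130 counts of all libraries allows a level of up to 0.0512 CPM (reads per 1000000 counts of the library, whose size was scaled by TMM), by a floor of 3 counts. Another 115 members had 1 to 29 reads, and 18 had 30 or more and held 77.0% of all member reads. These 18 were tested: 5 Or genes (Or43b, Or45b, Or63a, Or71a and Orco), 6 Gr genes (Gr28b, Gr32a, Gr64c, Gr64d, Gr64e and Gr66a), 5 Ir genes (Ir25a, Ir68a, Ir75a, Ir76a and Ir76b) and both Snmp genes. Just inside the limit stood Gr64d and Gr64e with 32 reads each, and just outside it stood Ir41a with 29 and Gr33a with 27. In a single library the floor of 3 counts lay between 0.402 and 1.01 CPM, so many levels below were near it; floors and intervals cover counting error only. In RNA from whole heads, fewer cells of a type and less RNA per cell cannot be told apart.

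BEAF-32, the target of the knockdown, had 2.64, 2.75 and 0.515 CPM in knockdown libraries at 29 °C, against 33.0, 35.7 and 35.3 CPM in control libraries at 29 °C. At 18 °C it had 1.63, 2.68 and 3.46 CPM in knockdown libraries, against 32.4, 34.1 and 39.2 CPM in control libraries. Every library thus matched its genotype label, while BEAF-32 does not check the temperature labels. The main rhodopsin of the eye, ninaE, was present in every library, which does not by itself show that only heads were used.

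Reads of antennal support-cell genes set 3 libraries apart. Os-C, a secreted protein of antennal support cells, had 29.9 and 24.2 CPM in the knockdown libraries at 18 °C with replicate numbers 2 and 3, and 23.6 CPM in the control library at 29 °C with replicate number 1. The other 9 libraries had 0 reads of it, and a5, a second antennal gene, was read in the same 3 libraries and in none of the 9. Summed over 11 genes of antennal support cells, 8 of which also belong to the odorant-binding proteins described further on, the level was 8.49, 9.23 and 11.8 CPM in knockdown libraries at 29 °C, against 26.9, 336 and 215 CPM in knockdown libraries at 18 °C. In control libraries it was 91.6, 13.0 and 17.5 CPM at 29 °C, against 16.0, 24.0 and 11.8 CPM at 18 °C. Of the 10 members of that list that could be tested, edgeR called all 10 lower at 29 °C than at 18 °C in knockdown flies (17.2% of all genes tested were called lower), 9 higher in knockdown than in control flies at 18 °C (5.88% higher), and 7 lower in the interaction (0.69% lower). In control flies it called 3 higher and 1 lower at 29 °C than at 18 °C (17.5% and 17.7%). At 29 °C it called 1 lower in knockdown than in control flies (7.04%). Among the 10, a5 and Obp84a reached the limit of 30 reads only through the knockdown libraries at 18 °C. They had 46 and 52 reads there, so their calls are not independent of the filter. Without the 3 libraries with Os-C reads, fewer of these genes were called in the comparisons that use knockdown flies at 18 °C. Os-C, by which the 3 were chosen, is itself on the list, and Os-C and a5 had 0 reads in the other 9. The loss of calls was thus partly set by that choice. Calls over all genes also fell there, as given at the end. Obp28a, Obp83a, Obp69a and a10 had the smallest adjusted p of the list with all libraries. Obp83a, for example, had between 0.324 and 1.03 CPM in knockdown libraries at 29 °C, against 1.36, 68.8 and 43.4 CPM in knockdown libraries at 18 °C. In the knockdown library at 18 °C without Os-C reads, Obp28a (19.3 CPM) and Obp69a (2.17 CPM) also lay above every knockdown library at 29 °C. There a10 went the other way, at 1.36 CPM against 4.72, 4.86 and 5.67 CPM in knockdown libraries at 29 °C. Its call as lower at 29 °C rests on the cool libraries with Os-C reads, at 65.4 and 32.8 CPM. The receptor results below are therefore given with and without these 3 libraries where they change; without them, knockdown flies at 18 °C keep 1 library, which is assumed to vary like the others. Hearing-organ genes of the antenna's second segment summed to 8.73 and 7.99 CPM in the 2 knockdown libraries and 6.56 CPM in the control library, against 6.15 to 10.2 CPM in the other 9. The antennal Ir tuning receptors summed to 8.73 and 4.75 CPM in the 2 knockdown libraries, against 5.97 CPM in the other library of their group, and to 10.9 CPM in the control library, the lowest of its group. The part of antennal support-cell reads in the receptor results was not tested otherwise.

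**Figure D1:**
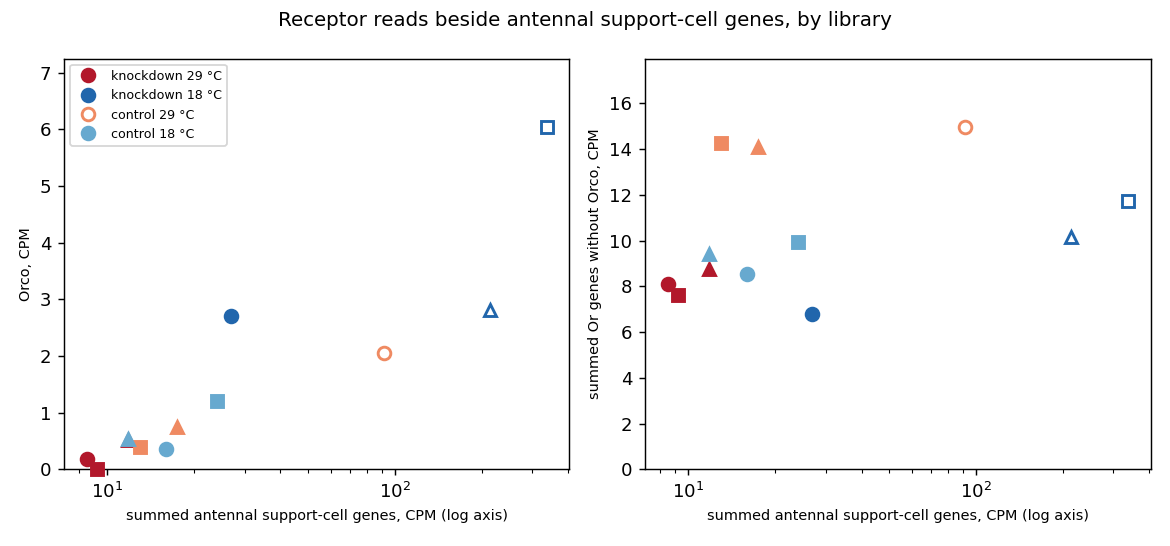
Level of Orco (left) and of all other Or genes summed (right) in CPM on the y axis, against the summed level of 11 antennal support-cell genes in CPM on a logarithmic x axis, 1 point per library; shape gives the replicate number (circle 1, square 2, triangle 3), colour the group, and hollow points mark the 3 libraries with Os-C reads; on the left, the triangles of knockdown at 29 °C and control at 18 °C lie on each other near 11.8 CPM. Orco reached 6.04 CPM in the library with the most antennal support-cell reads, while the summed other Or genes were highest in the 3 control libraries at 29 °C.

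Summed over all 180 genes, the receptor level was 49.1 ± 0.78 CPM in knockdown flies at 29 °C and 51.0 ± 8.24 CPM in knockdown flies at 18 °C (SD, n = 3 each here and below). In control flies it was 58.2 ± 2.56 CPM at 29 °C and 44.5 ± 6.30 CPM at 18 °C. Sums are described without a test. The 3 control libraries at 29 °C were above all others but 1, the knockdown library at 18 °C with the most antennal support-cell reads.

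The Or genes summed to 8.31, 7.61 and 9.28 CPM in knockdown libraries at 29 °C and 9.50, 17.8 and 13.0 CPM in knockdown libraries at 18 °C, against 17.0, 14.7 and 14.8 CPM in control libraries at 29 °C and 8.91, 11.1 and 9.93 CPM in control libraries at 18 °C. At 29 °C every knockdown library lay below every control library, with or without the library that has Os-C reads. At 18 °C the genotypes overlapped, and the knockdown library without Os-C reads lay within the range of the control libraries. The Ir genes summed to 19.1, 20.2 and 18.0 CPM in knockdown libraries at 29 °C and 14.7, 16.1 and 12.3 CPM in knockdown libraries at 18 °C, against 22.6, 19.9 and 21.2 CPM in control libraries at 29 °C and 11.6, 12.5 and 7.78 CPM in control libraries at 18 °C. Libraries at 29 °C were thus above those at 18 °C in both genotypes. With Ir76a and Ir75a left out, the Ir sum averaged 10.3 ± 0.53 CPM at 29 °C and 12.0 ± 1.43 CPM at 18 °C in knockdown flies, and 11.1 ± 2.05 CPM at 29 °C and 8.38 ± 2.16 CPM at 18 °C in control flies, and the temperatures overlapped in both.

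The Gr genes summed to 11.9, 12.2 and 11.1 CPM in knockdown libraries at 29 °C and 8.14, 11.1 and 11.0 CPM in knockdown libraries at 18 °C, against 4.71, 8.43 and 9.95 CPM in control libraries at 29 °C and 10.9, 8.71 and 9.12 CPM in control libraries at 18 °C. The 3 knockdown libraries at 29 °C were the highest of the 12, by a narrow margin over the knockdown libraries at 18 °C with Os-C reads, and the lowest was the control library at 29 °C with Os-C reads. The Snmp genes summed to 9.06, 9.88 and 10.8 CPM in knockdown libraries at 29 °C and 11.7, 15.1 and 12.7 CPM in knockdown libraries at 18 °C, against 13.3, 13.0 and 15.02 CPM in control libraries at 29 °C and 16.2, 16.4 and 10.5 CPM in control libraries at 18 °C. The knockdown libraries at 29 °C lay below every other library but the lowest of the control libraries at 18 °C.

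**Figure D2:**
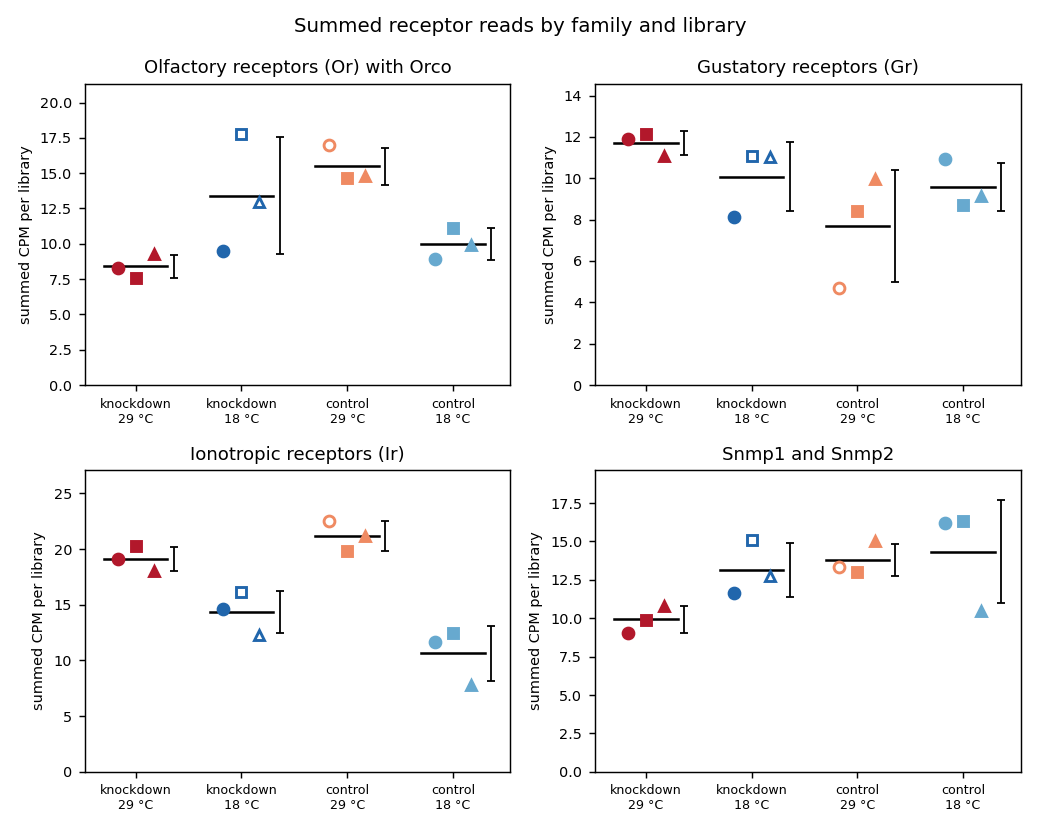
Summed CPM (y axis) of the Or genes with Orco, the Gr genes, the Ir genes and the 2 Snmp genes in each library of the 4 groups (x axis); points are libraries (circle, square and triangle for replicate numbers 1, 2 and 3; hollow with Os-C reads), black lines are group means and bars are SD. The Ir sum is higher at 29 °C in both genotypes, and the Or sum at 29 °C is lower in knockdown than in control libraries.

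Single genes were tested with edgeR's quasi-likelihood test over the 9858 genes with 30 or more reads, and a gene is called where its Benjamini-Hochberg adjusted p is under 0.05. Between 29 °C and 18 °C in knockdown flies, 2 of the 18 tested members were called higher (Ir76a and Ir75a) and 2 lower (Orco and Snmp1), beside 15.8% and 17.2% of all genes tested. In control flies, 3 of 18 were called higher at 29 °C (Ir76a, Ir75a and Or43b) and 0 lower, beside 17.5% and 17.7% of all genes; DESeq2 also called 3, and 6 members had an unadjusted p under 0.05. Their median log2 fold change was 0.20 in knockdown and 0.25 in control flies, against 0.00 and 0.01 over all genes.

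Between knockdown and control flies the calls were fewer. At 29 °C, 0 of 18 were called higher and 1 lower (Or63a), beside 6.04% and 7.04% of all genes; 6 had an unadjusted p under 0.05, and DESeq2 also called Or63a alone. At 18 °C, 1 was called higher (Orco) and 0 lower, beside 5.88% and 6.88%; 2 had an unadjusted p under 0.05, and DESeq2 also called Orco alone. The members' median log2 fold change was -0.20 at 29 °C and -0.09 at 18 °C, against -0.00 and 0.01 over all genes. In the interaction, which asks whether the temperature difference is unlike in knockdown and control flies, 0 members were called higher and 1 lower (Orco), beside 1.15% and 0.69%; 2 had an unadjusted p under 0.05. DESeq2 also called Orco alone there. With 18 genes tested, these counts say nothing of receptors as a set. The comparisons share libraries, since each group enters more than 1 of them.

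**Figure D3:**
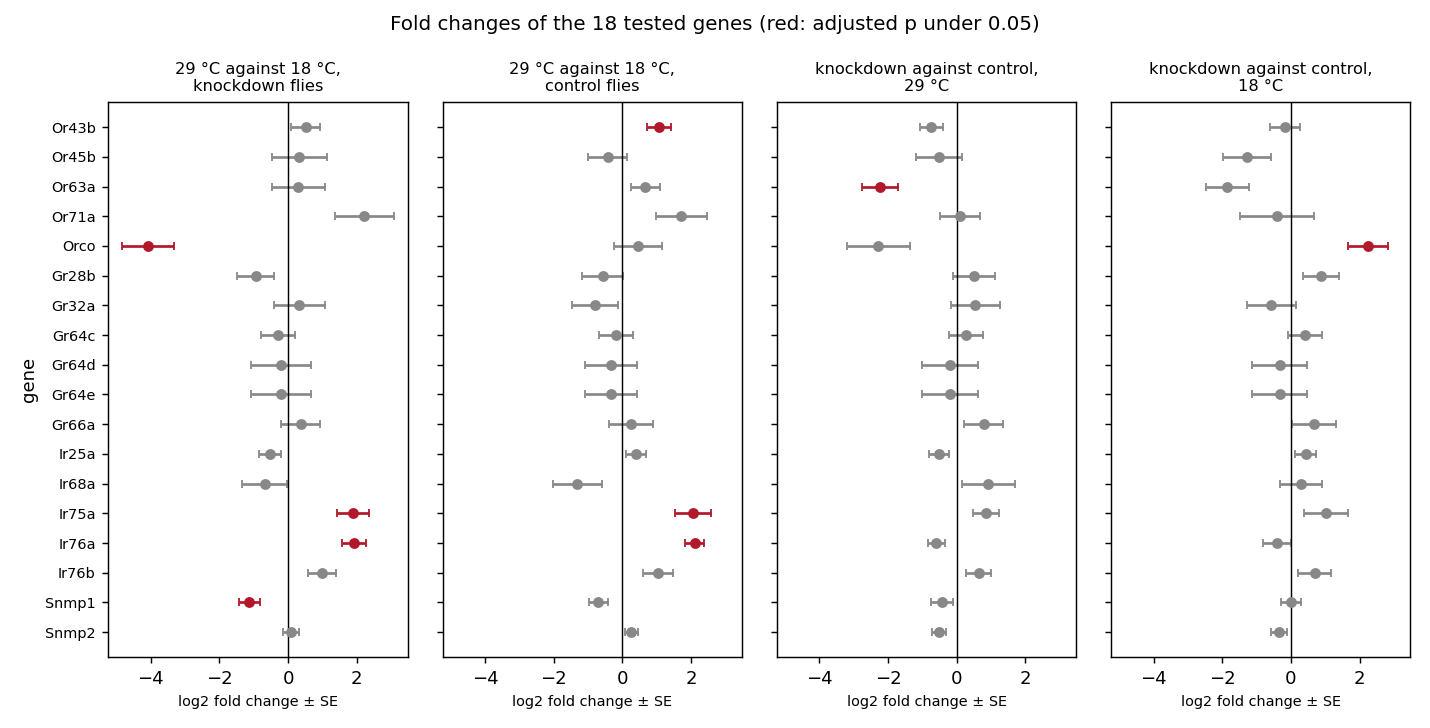
Log2 fold change from edgeR (x axis) of the 18 tested genes (y axis) in 4 comparisons, with an SE derived from the F statistic of the test. The comparisons are 29 °C against 18 °C in knockdown and in control flies, and knockdown against control at 29 °C and at 18 °C. Red marks an adjusted p under 0.05. Ir76a and Ir75a lie near 2 in both temperature comparisons, and Orco lies at -4.07 in knockdown flies.

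Ir76a, a tuning receptor for amines such as phenylethylamine in coeloconic sensilla of the antenna, had the most reads of the Ir genes. It had 5.29, 5.67 and 5.41 CPM in knockdown libraries at 29 °C, against 1.09, 2.35 and 1.08 CPM in knockdown libraries at 18 °C. Control libraries had 8.40, 8.83 and 7.51 CPM at 29 °C, against 1.64, 2.41 and 1.34 CPM at 18 °C. Every warm library lay above every cool library of its genotype. Ir76a was higher at 29 °C by 1.92 ± 0.35 on the log2 scale (SE) in knockdown flies (edgeR, adjusted p = 0.000186) and by 2.11 ± 0.28 in control flies (edgeR, adjusted p = 5.05e-06). Both calls were kept without the 3 libraries that have Os-C reads, at 2.31 (edgeR, adjusted p = 0.00712) and 2.09 (edgeR, adjusted p = 3.54e-05). At 29 °C the 3 knockdown libraries lay below the 3 control libraries, with a log2 fold change of -0.59 ± 0.24 that was not called (edgeR, adjusted p = 0.116). In Release 6 Ir76a overlaps CG14102, which had 211 reads and was called in no comparison. CG14102 averaged 3.93 CPM at 29 °C and 2.37 CPM at 18 °C in control flies, and 4.34 and 4.36 CPM in knockdown flies. As the strand setting of the counts is not given, reads of overlapping genes may not be told apart.

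Ir75a, a tuning receptor for acetic and propionic acid in the antenna, had 3.40, 3.73 and 2.83 CPM in knockdown libraries at 29 °C, against 1.09, 0.671 and 0.864 CPM in knockdown libraries at 18 °C. Control libraries had 1.03, 2.01 and 2.44 CPM at 29 °C, against 0.546, 0.268 and 0.537 CPM at 18 °C. Warm and cool libraries did not overlap in either genotype, though the cool control libraries rest on 7 reads in all. The cool knockdown libraries had 10 reads of Ir75a, against 52 in warm knockdown and 28 in warm control libraries. Ir75a thus reached the limit of 30 reads only through its warm libraries, so its separation and calls are not independent of the filter. Ir75a was higher at 29 °C by 1.90 ± 0.46 on the log2 scale in knockdown flies (edgeR, adjusted p = 0.00281) and by 2.05 ± 0.53 in control flies (edgeR, adjusted p = 0.0042). Without the 3 libraries with Os-C reads the control call was kept at 2.33 (edgeR, adjusted p = 0.00305), and the knockdown value of 1.61 lost its call (edgeR, adjusted p = 0.101). Between genotypes the knockdown libraries lay above the control libraries at 29 °C and at 18 °C without a call, at 0.86 ± 0.37 (edgeR, adjusted p = 0.144) and 1.02 ± 0.64 (edgeR, adjusted p = 0.355). The neighbouring paralogs Ir75b and Ir75c had 3 reads and 0 reads.

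**Figure D4:**
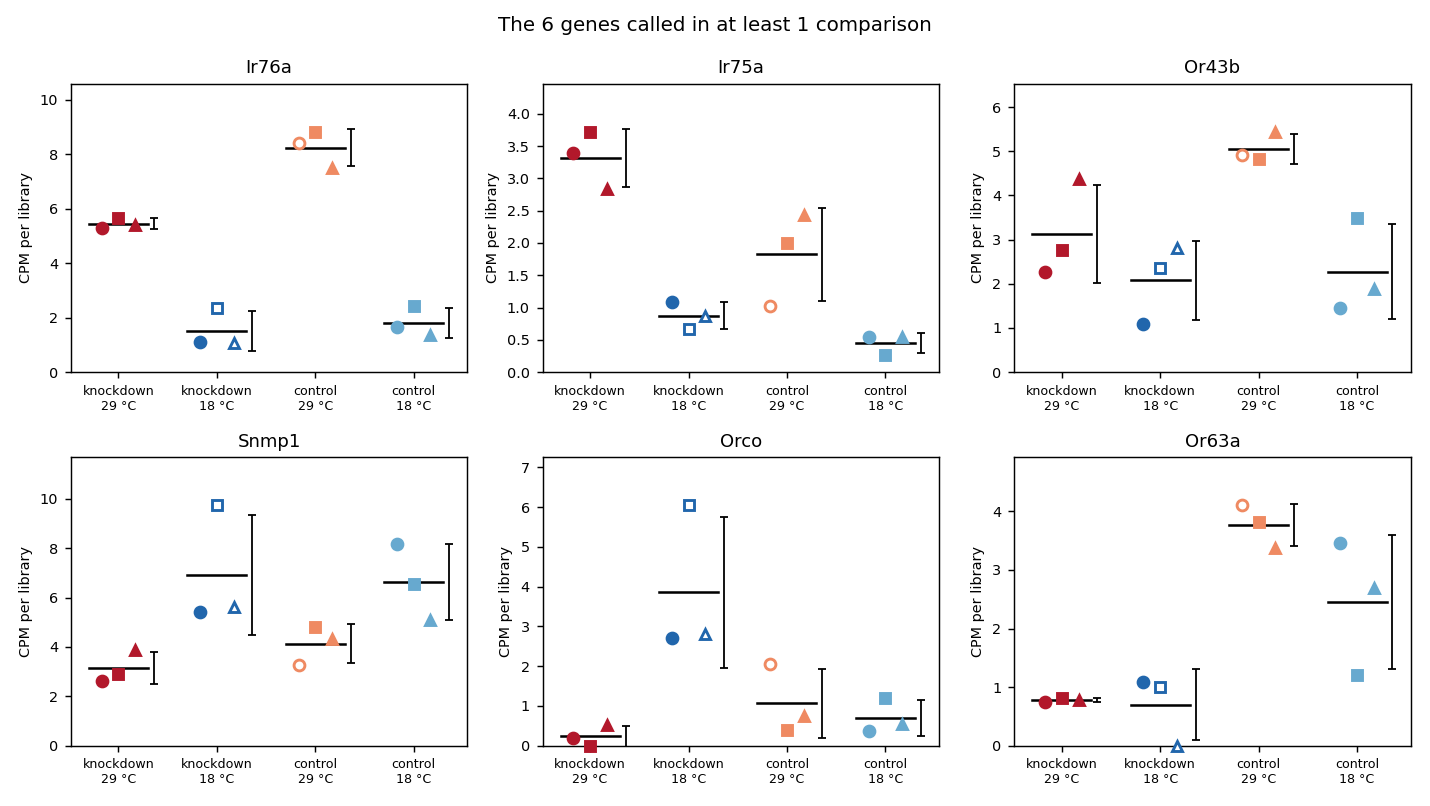
Level in CPM (y axis) of the 6 genes called in at least 1 comparison, by group (x axis); points are libraries (circle, square and triangle for replicate numbers 1, 2 and 3; hollow with Os-C reads), lines are means and bars are SD. Ir76a and Ir75a are higher at 29 °C in both genotypes, Orco is highest in knockdown libraries at 18 °C, and Or63a is lower in knockdown libraries.

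Of the 4 Ir co-receptors, Ir76b and Ir25a were tested and neither was called; Ir8a and Ir93a were under 30 reads. Ir76b, used by amine, salt and amino acid receptors in antenna and mouthparts, had 3.21, 4.54 and 4.38 CPM in knockdown libraries at 29 °C and 2.44, 0.671 and 2.59 CPM in knockdown libraries at 18 °C. Control libraries had 3.28, 2.01 and 2.44 CPM at 29 °C and 0.910, 1.74 and 0.805 CPM at 18 °C. Warm libraries lay above cool ones in both genotypes, with log2 fold changes of 1.00 ± 0.41 in knockdown (edgeR, adjusted p = 0.065) and 1.04 ± 0.44 in control flies (edgeR, adjusted p = 0.0707). Ir25a, the most widely used Ir co-receptor, had 3.02, 2.75 and 3.61 CPM in knockdown libraries at 29 °C and 5.43, 5.03 and 3.24 CPM in knockdown libraries at 18 °C. In control libraries Ir25a had 4.71, 3.21 and 5.25 CPM at 29 °C and 2.91, 3.89 and 2.95 CPM at 18 °C. Its temperatures overlapped in both genotypes, with log2 fold changes of -0.54 ± 0.32 in knockdown (edgeR, adjusted p = 0.21) and 0.41 ± 0.29 in control flies (edgeR, adjusted p = 0.305). Ir8a, the co-receptor of the acid receptors, had 12 reads in all, of which 10 came from the 3 libraries with Os-C reads, and Ir93a had 10 reads.

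Ir68a, which senses moist air, had 49 reads and its groups overlapped in every comparison. Of the 13 tuning receptors of the antenna in the list, 11 had a read, and their 482 reads came mostly from Ir76a (257) and Ir75a (97). Their sum was 10.1 ± 1.10 CPM at 29 °C and 6.48 ± 2.04 CPM at 18 °C in knockdown flies, and 11.5 ± 0.60 CPM at 29 °C and 4.46 ± 1.77 CPM at 18 °C in control flies. The 55 Ir genes under 30 reads, 34 of which had a read, summed to 2.44 ± 1.15 and 4.23 ± 1.28 CPM in knockdown flies at 29 °C and 18 °C, and to 3.76 ± 0.87 and 2.99 ± 1.24 CPM in control flies at 29 °C and 18 °C. Those ranges overlapped between the temperatures.

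Orco, the channel subunit that every Or neuron of the antenna and palp needs, had 1, 0 and 2 reads in knockdown libraries at 29 °C and 10, 18 and 13 reads in knockdown libraries at 18 °C. Control libraries had 10, 2 and 4 reads at 29 °C and 2, 9 and 2 reads at 18 °C. In CPM these were 0.189, 0 and 0.515 in the warm and 2.71, 6.04 and 2.81 in the cool knockdown libraries, and 2.05, 0.401 and 0.751 in the warm and 0.364, 1.21 and 0.537 in the cool control libraries. The cool knockdown libraries were the 3 highest of the 12, and the highest control library was the warm one with Os-C reads. Between knockdown libraries at 29 °C and 18 °C the pooled level had a ratio of 0.0538 with a 95% counting interval of 0.0107 to 0.169, and a log2 fold change of -4.07 ± 0.76 (edgeR, adjusted p = 0.000283). In control flies that log2 fold change was 0.46 ± 0.69 (edgeR, adjusted p = 0.651), and the interaction was -4.53 ± 1.08 (edgeR, adjusted p = 0.0313).

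Knockdown flies had more Orco than control flies at 18 °C, with a log2 fold change of 2.25 ± 0.59 (edgeR, adjusted p = 0.0124) and libraries that did not overlap. At 29 °C the log2 fold change of Orco between knockdown and control flies was -2.28 ± 0.91, not called (edgeR, adjusted p = 0.112), with overlap. Without the 3 libraries with Os-C reads, the temperature call in knockdown flies was kept at -3.63 (edgeR, adjusted p = 0.0118) and rests on the 1 remaining cool library, with 10 reads of Orco and 0 of Os-C. The genotype difference at 18 °C was then 1.80 (edgeR, adjusted p = 0.238) and the interaction -3.25 (edgeR, adjusted p = 0.402), so neither was called, and the control temperature value turned to -0.38. Orco was called at 18 °C neither without the knockdown library of replicate number 2 (edgeR, adjusted p = 0.0748) nor without the control library of replicate number 1 (edgeR, adjusted p = 0.0592). Of the 12 interaction fits that left out 1 library, 7 made no call of Orco: those without knockdown replicate 1 or 2 at 29 °C, knockdown replicate 2 at 18 °C, control replicate 1 or 3 at 29 °C, or control replicate 1 or 3 at 18 °C. No gene overlaps Orco in Release 6.

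Or43b, a receptor of the antenna and the Or gene with the most reads, had 2.27, 2.75 and 4.38 CPM in knockdown libraries at 29 °C and 1.09, 2.35 and 2.81 CPM in knockdown libraries at 18 °C. Control libraries had 4.92, 4.82 and 5.44 CPM at 29 °C and 1.46, 3.49 and 1.88 CPM at 18 °C. The temperatures separated in control libraries and overlapped in knockdown libraries. The log2 fold change at 29 °C was 0.52 ± 0.42 in knockdown flies (edgeR, adjusted p = 0.377) and 1.07 ± 0.35 in control flies (edgeR, adjusted p = 0.0221), where Or43b was called. The call was kept without the library with Os-C reads at 1.09 (edgeR, adjusted p = 0.0396) and lost without the warm control library of replicate number 3 (edgeR, adjusted p = 0.0668) or the cool control libraries of replicate numbers 1 (edgeR, adjusted p = 0.106) and 3 (edgeR, adjusted p = 0.0601). The difference between the genotypes in this response was -0.55 ± 0.56 and was not called (edgeR, adjusted p = 0.752). Or43b overlaps Cul1 in Release 6, a far more abundant gene of protein degradation with 4821 reads that was called in no comparison. Without the strand setting, reads of Or43b and Cul1 may not be told apart either.

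Or63a, best known from olfactory neurons of the larva, had 0.755, 0.810 and 0.773 CPM in knockdown libraries at 29 °C, against 4.10, 3.81 and 3.38 CPM in control libraries at 29 °C. At 18 °C it had 1.09, 1.01 and 0 CPM in knockdown libraries, against 3.46, 1.21 and 2.68 CPM in control libraries. At both temperatures every knockdown library lay below every control library. Knockdown libraries had 12 reads of Or63a at 29 °C and 7 at 18 °C, against 57 and 38 in control libraries. Or63a thus reached the limit of 30 reads only through its control libraries, so the genotype separation and the call below are not independent of the filter. Or63a was lower in knockdown than in control flies by a log2 fold change of -2.23 ± 0.52 at 29 °C (edgeR, adjusted p = 0.00558). At 18 °C the log2 fold change was -1.86 ± 0.63 and just missed the threshold (edgeR, adjusted p = 0.0561). The call at 29 °C was kept in all 21 settings tried, with adjusted p between 0.000179 and 0.0282 (edgeR or DESeq2), and the value at 18 °C was called in 5 of the 21. No other gene overlaps Or63a in Release 6.

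The other tested Or genes were not called. Or45b, also best known from larvae, had 36 reads and overlaps an antisense RNA with 23 reads. Or71a, a palp receptor for phenolic compounds, had 8, 3 and 3 reads in knockdown libraries at 29 °C, against 1, 0 and 1 reads in knockdown libraries at 18 °C. In control libraries it had 4, 5 and 4 reads at 29 °C, against 1, 1 and 2 reads at 18 °C. Warm libraries lay above cool ones in both genotypes. The pooled ratio was 5.15 (95% counting interval 1.18 to 46.7) in knockdown flies (edgeR, adjusted p = 0.0542). In control flies it was 3.57 (1.10 to 15.03) (edgeR, adjusted p = 0.0775). With 33 reads in all, Or71a reached the limit of 30 only through its warm libraries, so this separation is not independent of the filter. Or71a overlaps Plp, a centriole gene that was called lower in knockdown flies at 29 °C and at 18 °C and not called between temperatures.

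Grouped by the organ or stage they are best known from, a grouping made after the counts were seen, the 14 larval Or genes (9 with a read) summed to 1.70, 1.62 and 2.58 CPM in knockdown libraries at 29 °C, against 5.94, 5.42 and 5.07 CPM in control libraries at 29 °C. At 18 °C they summed to 2.17, 1.68 and 0.864 CPM in knockdown libraries, against 4.55, 3.08 and 4.56 CPM in control libraries. The groups did not overlap at either temperature, and 114 of the 194 reads were those of Or63a. The 7 palp receptors had 64 reads and averaged between 0.923 and 1.19 CPM in the 4 groups. The 38 other Or genes (26 with a read), mostly of the antenna, summed to 4.91, 5.51 and 5.41 CPM in knockdown libraries at 29 °C, against 7.99, 7.42 and 7.88 CPM in control libraries at 29 °C. At 18 °C they summed to 3.80, 9.06 and 7.78 CPM in knockdown libraries, against 2.91, 5.50 and 4.03 CPM in control libraries. Among the Or genes under 30 reads, the 2 highest libraries, at 8.05 and 6.91 CPM, were the cool knockdown libraries with Os-C reads, and all others lay between 2.58 and 4.13 CPM.

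Of the gustatory receptors, none of the 6 tested was called in any of the 5 comparisons by edgeR or DESeq2, and 0 had an unadjusted p under 0.05 with edgeR. Over all genes, edgeR called 15.8% to 17.7% in each direction between temperatures and 5.88% to 7.04% between genotypes. In the interaction it called 1.15% higher and 0.69% lower. A count over 6 genes with 32 to 82 reads each does not show that the family was stable. Gr64c, of the sugar receptor cluster, had 2.08, 0.972 and 1.29 CPM in knockdown libraries at 29 °C and 1.36, 2.35 and 1.73 CPM in knockdown libraries at 18 °C. In control libraries Gr64c had 0.820, 1.60 and 1.13 CPM at 29 °C and 2.00, 0.804 and 1.34 CPM at 18 °C. All 4 groups overlapped. Gr64d and Gr64e had the same count in every one of the 12 libraries and overlap each other in Release 6, so they cannot be told apart. Or19a and Or19b likewise had the same count in every library, 10 reads each. Counts and sums of reads given here include both genes of each pair; with each pair counted once the members had 2930 reads, the Or genes 669, the Gr genes 540 and the sugar receptors 162. The 8 sugar receptors in the table had 194 reads with both and summed to between 1.02 and 4.97 CPM per library, with overlap in all 4 comparisons.

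Gr66a, a bitter receptor that responds to caffeine, had 0.378, 2.10 and 2.06 CPM in knockdown libraries at 29 °C and 0.814, 1.68 and 1.08 CPM in knockdown libraries at 18 °C. In control libraries Gr66a had 1.02, 0.802 and 0.751 CPM at 29 °C and 1.09, 0.536 and 0.537 CPM at 18 °C. Its groups overlapped, and so did those of Gr32a, a second bitter receptor, which had 43 reads and overlaps the more abundant CG6230. The 5 receptors shared by most bitter neurons summed to 2.64, 3.40 and 3.61 CPM in knockdown libraries at 29 °C, against 1.84, 1.60 and 1.31 CPM in control libraries at 29 °C. At 18 °C they summed to 2.17, 2.68 and 2.16 CPM in knockdown libraries, against 3.27, 2.01 and 1.34 CPM in control libraries. The genotypes separated at 29 °C and overlapped at 18 °C.

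Gr28b, which has roles in taste and warmth sensing, had 1.70, 0.810 and 0.515 CPM in knockdown libraries at 29 °C and 1.63, 1.68 and 2.59 CPM in knockdown libraries at 18 °C. In control libraries Gr28b had 0.410, 0.401 and 1.31 CPM at 29 °C and 0.728, 1.21 and 1.34 CPM at 18 °C. Its knockdown libraries lay above its control libraries at 18 °C, with a log2 fold change of 0.88 ± 0.52 (edgeR, adjusted p = 0.318). Gr21a and Gr63a, which together detect carbon dioxide in the antenna, had 2 and 15 reads. The 52 Gr genes under 30 reads summed to 6.99, 5.99 and 5.15 CPM in knockdown libraries at 29 °C, against 1.84, 3.21 and 5.07 CPM in control libraries at 29 °C, and did not overlap there. At 18 °C they summed to 3.26, 4.03 and 3.24 CPM in knockdown libraries, against 4.73, 3.89 and 3.76 CPM in control libraries.

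Snmp1, needed by antennal neurons that detect the pheromone cis-vaccenyl acetate, had 2.64, 2.92 and 3.87 CPM in knockdown libraries at 29 °C, against 5.43, 9.73 and 5.62 CPM in knockdown libraries at 18 °C. Control libraries had 3.28, 4.82 and 4.32 CPM at 29 °C, against 8.19, 6.57 and 5.10 CPM at 18 °C. Warm libraries lay below cool ones in both genotypes. The log2 fold change was -1.12 ± 0.30 in knockdown flies, which was called (edgeR, adjusted p = 0.00685), and -0.69 ± 0.27 in control flies, which was not (edgeR, adjusted p = 0.0521). The control value was called in 7 of 21 settings, with adjusted p between 0.0292 and 0.202 (edgeR or DESeq2). The difference between these values was -0.43 ± 0.41 and was not called (edgeR, adjusted p = 0.736). Without the 3 libraries with Os-C reads the knockdown value was -0.81 and not called (edgeR, adjusted p = 0.198), and without the cool knockdown library of replicate number 2 alone it was not called either (edgeR, adjusted p = 0.0532). Snmp1 overlaps SNF4Agamma in Release 6, a subunit of the energy sensor AMPK with 1883 reads, which was itself lower at 29 °C, with log2 fold changes of -0.51 in knockdown flies (edgeR, adjusted p = 0.0146) and -0.45 in control flies (edgeR, adjusted p = 0.0237). As the strand setting of the counts is not given, reads of the 2 genes may not be told apart.

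Snmp2, found in support cells, had the most reads of all members. It had 6.42, 6.96 and 6.96 CPM in knockdown libraries at 29 °C, against 10.0, 8.23 and 10.7 CPM in control libraries at 29 °C. At 18 °C Snmp2 had 6.24, 5.37 and 7.13 CPM in knockdown libraries, against 8.01, 9.79 and 5.37 CPM in control libraries. The genotypes separated at 29 °C, with a log2 fold change of -0.51 ± 0.21 that was not called (edgeR, adjusted p = 0.123). The log2 fold change at 18 °C was -0.34 ± 0.23 (edgeR, adjusted p = 0.397), with overlap. Snmp2 overlaps CG32373 in Release 6, which had 65 reads.

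**Figure D5:**
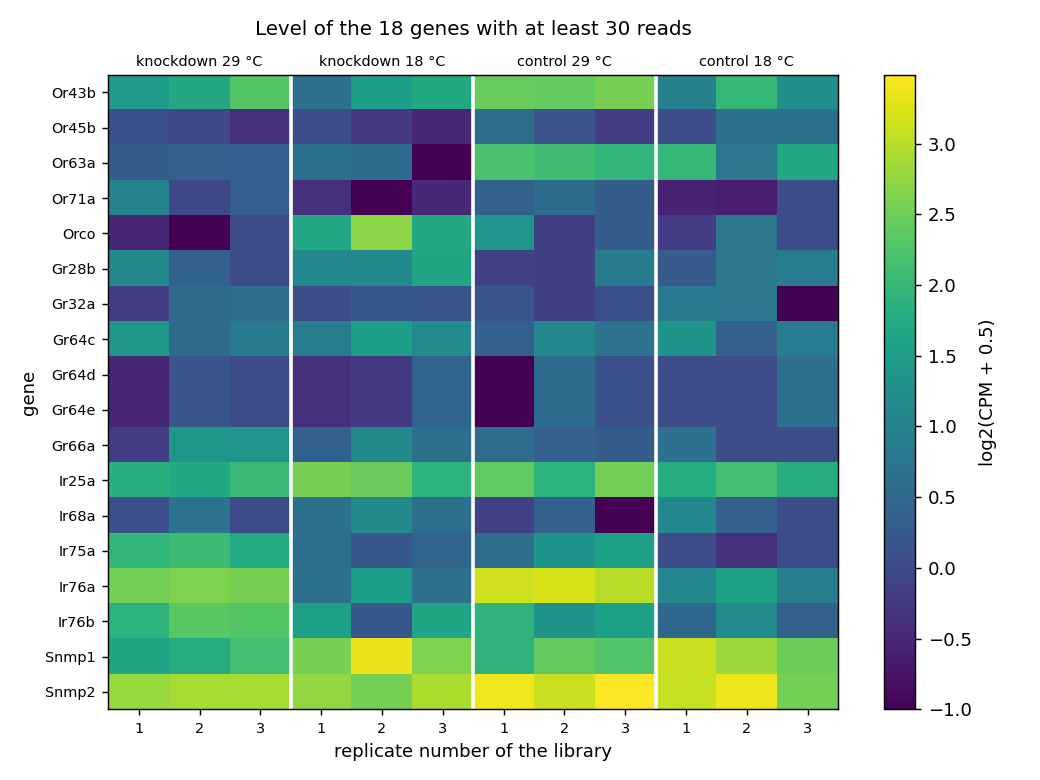
Heat map of log2(CPM + 0.5) of the 18 tested genes (rows) in the 12 libraries (columns, with the replicate number below and the group above); brighter is higher. Ir76a is brightest in the 3 control libraries at 29 °C, and Or63a is darker in the 6 knockdown libraries than in the 6 control libraries.

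Other genes of chemosensation and of head cell types were set beside the receptors. Odorant-binding proteins, secreted carriers around sensory neurons, summed to 8493 ± 158 CPM at 29 °C and 12240 ± 1430 CPM at 18 °C in knockdown flies, and to 8365 ± 459 CPM at 29 °C and 11470 ± 415 CPM at 18 °C in control flies. Of 33 tested, 7 were called higher and 19 lower at 29 °C in knockdown flies (15.8% and 17.2% of all genes), and 8 higher and 15 lower in control flies (17.5% and 17.7%). Between knockdown and control flies 4 were called higher and 9 lower at 29 °C (6.04% and 7.04% of all genes), and 11 higher and 5 lower at 18 °C (5.88% and 6.88%), with 1 higher and 5 lower in the interaction (1.15% and 0.69%). Of the 11 higher at 18 °C, 6 (Obp83a, Obp83b, Obp28a, Obp69a, Obp84a and Obp19a) are also in the antennal support-cell list, as are 4 of the 5 lower in the interaction (Obp69a, Obp83b, Obp19a and Obp83a). Without the 3 libraries with Os-C reads, fewer of these genes were called in the comparisons that use knockdown flies at 18 °C, which then keep 1 library. Calls over all genes fell there as well, as given at the end, so the drop cannot be read as particular to these genes. Obp99a had a log2 fold change of -1.74 between 29 °C and 18 °C in knockdown flies (edgeR, adjusted p = 2.7e-07) and -3.61 in control flies (edgeR, adjusted p = 3.41e-11), with an interaction of 1.87 (edgeR, adjusted p = 0.0003). Obp56d was higher in knockdown than in control flies by 1.42 on the log2 scale at 29 °C (edgeR, adjusted p = 4.93e-09) and by 1.47 at 18 °C (edgeR, adjusted p = 3.11e-09). Obp99b was lower in knockdown flies by a log2 fold change of -2.47 at 29 °C (edgeR, adjusted p = 3.37e-09) and -2.11 at 18 °C (edgeR, adjusted p = 8.29e-08), and Obp57d was lower at 29 °C than at 18 °C in both genotypes.

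The CheA and CheB families are secreted proteins of taste sensilla, and 2 of their genes were tested. Both were called higher at 29 °C in knockdown flies and neither in control flies, beside 15.8% and 17.5% of all genes. CheA87a had 12.5, 13.8 and 13.1 CPM in knockdown libraries at 29 °C and between 2.42 and 4.36 CPM in the other 9 libraries. Its log2 fold change between knockdown and control flies at 29 °C was 2.08 ± 0.22 (edgeR, adjusted p = 7.5e-07), and its interaction was 1.76 ± 0.36 (edgeR, adjusted p = 0.0116). CheB42c, with 11, 27 and 9 reads in knockdown libraries at 29 °C against 3, 7 and 2 reads in those at 18 °C, was called for temperature in knockdown flies alone, at 1.45 ± 0.55 (edgeR, adjusted p = 0.0461), against 1.00 ± 0.52 in control flies (edgeR, adjusted p = 0.146), and its interaction was not called (edgeR, adjusted p = 0.869). Among 4 tested genes of gustatory neurons, ppk28, the water taste channel, had 4, 13 and 4 reads in knockdown libraries at 29 °C, against 0, 1 and 1 reads in knockdown libraries at 18 °C. It was called higher at 29 °C there (edgeR, adjusted p = 0.0136), beside 15.8% of all genes. Its pooled ratio was 7.73 (95% counting interval 1.89 to 68.0), and no other call was made among the 4. Of 3 tested genes of hearing organs, Dhc93AB, an axonemal dynein, had 5, 7 and 0 reads in knockdown libraries at 29 °C, against 12, 6 and 9 reads in knockdown libraries at 18 °C. It was called lower at 29 °C, at -1.61 ± 0.59 on the log2 scale (edgeR, adjusted p = 0.04), beside 17.2% of all genes. No other call was made among the 3. Without the 3 libraries with Os-C reads, the calls of CheB42c, ppk28 and Dhc93AB and the interaction of CheA87a were lost.

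The 10 tested genes of transport in sensory cilia gave 4 calls in the 5 comparisons: 2 higher between temperatures in knockdown flies (15.8% of all genes were), 1 lower in control flies (17.7%) and 1 higher between genotypes at 18 °C (5.88%). Kap3 and Klp68D, kinesin-II subunits, were higher at 29 °C in knockdown flies by 0.31 (edgeR, adjusted p = 0.0381) and 0.36 (edgeR, adjusted p = 0.0443), and Oseg1 was lower at 29 °C in control flies at -1.06 (edgeR, adjusted p = 0.0247), with 8, 8 and 8 reads at 29 °C against 19, 23 and 13 at 18 °C. These 3 calls were lost without the 3 libraries with Os-C reads. Oseg5 had 13, 5 and 13 reads in knockdown libraries at 18 °C, against 2, 5 and 3 reads in control libraries at 18 °C, and was higher by 2.13 on the log2 scale (edgeR, adjusted p = 0.00791). Of 7 transcription factors known for Or gene choice, Eip93F alone was called lower at 29 °C in each genotype, beside 17.2% and 17.7% of all genes in knockdown and control flies. It was at -0.60 in knockdown (edgeR, adjusted p = 2.68e-05) and -0.45 in control flies (edgeR, adjusted p = 0.0004). Onecut, at 0.48, and Xbp1, at 0.22, were called higher at 29 °C in control flies, beside 17.5% of all genes. Xbp1 was lower in knockdown than in control flies at 29 °C (-0.32) and at 18 °C (-0.25), beside 7.04% and 6.88% of all genes. Of the calls of Xbp1, the one between genotypes at 29 °C was kept without the 3 libraries with Os-C reads. Amt, an ammonium transporter of the antenna, was called in no comparison.

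Markers of head cell types were counted in the same way, beside 15.8% higher and 17.2% lower of all genes tested between temperatures in knockdown flies and 17.5% and 17.7% in control flies. Of 10 photoreceptor genes, 5 were called higher and 2 lower at 29 °C in each genotype. Between knockdown and control flies 3 were higher and 1 lower at 29 °C (6.04% and 7.04% of all genes), and 2 higher and 1 lower at 18 °C (5.88% and 6.88%). The lower one in both genotype comparisons was Rh6, a rhodopsin of the eye, at -2.33 at 29 °C and -2.09 at 18 °C, while Rh5, another rhodopsin, was higher by 0.79 and 1.03; norpA and ninaE were higher at 29 °C than at 18 °C in both genotypes. Of 6 neuronal genes, elav and nSyb were higher at 29 °C in both genotypes, elav by 0.81 in knockdown and 0.59 in control flies, and Syt1 was lower in knockdown flies at 18 °C. Of 5 glial genes, 4 were called lower at 29 °C in knockdown and 3 in control flies, Gat, Eaat1 and alrm in both, Eaat1 at -0.67 in knockdown and -0.73 in control flies, and repo was higher in knockdown flies at 18 °C. Without the 3 libraries with Os-C reads, the calls of the photoreceptor gene ninaC as lower at 29 °C in both genotypes, of nSyb in knockdown flies and of Syt1 were lost. The part of such shifts in the receptor levels was not tested.

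The genes whose level was most like the summed receptor level were found by Pearson's r over the 12 libraries, after the mean of each group had been taken out of both. They were CG2540 (0.96), CG17186 (0.95), CG5844 (0.94), lic (0.93) and Saf-B (0.93). These values are a description, since the libraries share their depth and 9858 genes were searched.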

How the data were processed

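The authors deposited raw read counts, 1 whole number for each gene in each library. STAR, TopHat2 and the dm3 build are named in the submitters' processing notes; their versions, the program that counted reads, the annotation it used and whether it used strand are not given in the sources used here. Per the labels' protocols, DNase-treated RNA of heads was fragmented, dephosphorylated and ligated to a linker before 3' end libraries were made. Groups came from the labels.

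The tests used edgeR 4.0.16 under R 4.3.3: genes with 30 or more reads over the 12 libraries, TMM scaling, 1 quasi-likelihood model of the 4 groups, 5 contrasts, and Benjamini-Hochberg adjustment over 9858 genes with a threshold of 0.05. The script was tested on simulated data. Each SE given is the absolute log2 fold change divided by the square root of the F statistic of edgeR's test. DESeq2 1.42.0 and other scalings, filters and left-out libraries were tried as alternatives. A fold change against few reads depends on the prior count of 0.125, so reads are given for genes with few. Overlaps of genes come from the coordinates in a RefSeq table of Release 6, matched by symbol for all 180 members. Neither coordinates nor sequences are printed. Every library differed from the others of its group by more than sampling noise. The H3K4me3 peak lists are not analysed here.

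The members and lists were chosen with earlier results of these data known. Named are every member with 30 or more reads, with values per library for those called and the 3 highest of each family; up to 4 called genes of each other list by smallest adjusted p, or the highest where none was called; and the 5 genes most like the summed level. Values of Or71a, Ir8a and the role sums were added after the data were seen.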

Additional observations from a re-analysis of the deposited data

Results flagged for a closer look

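The temperature difference of Orco was unlike in knockdown and control flies by a test of the difference itself. The log2 fold change between 29 °C and 18 °C was -4.07 in knockdown flies and 0.46 in control flies, and the interaction was -4.526 (edgeR, adjusted p = 0.0313, n = 3 libraries in each group). Orco was lower in every knockdown library at 29 °C than in every knockdown library at 18 °C, while the control libraries overlapped. Os-C, a gene of antennal support cells, was read in 2 of the 3 knockdown libraries at 18 °C and in 1 of the 3 control libraries at 29 °C. Without these 3 libraries the interaction was -3.25 and was not called (edgeR, adjusted p = 0.402); over all 20 settings the adjusted p ran between 0.000671 and 0.402, and 12 settings called it.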

How the results depend on the processing

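Receptor calls between 29 °C and 18 °C in control flies numbered 3, and 5 with no filter beyond 1 count, where Or10a was added as higher and Snmp1 as lower. In knockdown flies they numbered 4, and 2 (Ir76a and Orco) without the 3 libraries with Os-C reads, an alternative chosen after seeing the data. Between knockdown and control flies at 18 °C the single call became 2, with Or63a lower, under library totals alone, under filterByExpr, with no filter beyond 1 count and without the 2 libraries lowest in roX1 (also chosen after seeing the data), 0 without the 3 Os-C libraries, and 0 to 2 when single libraries were left out (0 without knockdown replicate 2 or control replicate 1, 2 without control replicate 2). The interaction call became 0 without the 3 Os-C libraries and 0 to 1 when single libraries were left out. The call at 29 °C between genotypes stayed at 1 in all 21 settings. In the groups of the 2 libraries lowest in roX1, roX1 had 53.5 to 192 CPM (control at 18 °C) and 113 to 257 CPM (knockdown at 29 °C). It had 102 to 138 CPM in knockdown libraries at 18 °C and 185 to 238 CPM in control libraries at 29 °C. The labels give no sex, and the mix of sexes was not tested. The summed level of all receptors between genotypes at 29 °C had a log2 ratio of -0.24, against -0.3143 under library totals and -0.3146 over members with 30 or more reads; between temperatures in knockdown flies it was -0.05 and lay between -0.20 and 0.16. The value of Orco between temperatures in control flies was 0.46, ran between -0.3789 (without the warm replicate 1) and 1.229 when single libraries were left out, and turned to -0.3797 without the 3 Os-C libraries; the cause was not tested. Ir76a was called between temperatures in all 21 settings in both genotypes, with edgeR or DESeq2.

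Replicate numbers do not pair the libraries: 0 of 18 correlations between same-numbered libraries were over 0.1, and with the replicate block the receptor calls were 3 in control and 4 in knockdown flies between temperatures, 1 between genotypes at each temperature and 1 in the interaction.

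Library totals alone moved the median of all genes between temperatures by -0.11 in control and -0.14 in knockdown flies and the share of calls that are higher to 34.4% and 27.6%, against 49.8% and 48.0% with TMM; between genotypes that share was 29.4% at 29 °C and 37.7% at 18 °C, against 46.2% and 46.1% with TMM. It made 921 higher calls between temperatures in knockdown flies (1561 with TMM) and 366 between genotypes at 29 °C (595 with TMM; 351 without the control replicate 3). Without the 3 Os-C libraries the calls over all genes were 783 higher and 1058 lower between temperatures in knockdown flies (1561 and 1692 with all), 277 and 288 between genotypes at 18 °C (580 and 678), and 42 and 42 in the interaction (113 and 68), which had 254 and 169 with no filter, 69 higher without the warm control replicate 3, and 40 to 44 lower without the warm knockdown replicate 3, the warm control replicate 1 or 3, the cool control replicate 1, or the 2 libraries lowest in roX1. Depth is a limit: 162 of 180 receptors were below 30 reads.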
